A study of Homo sapiens with 4 samples.

Results

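HSPA1A and 9 other heat shock genes, not all of them heat-inducible, were followed across the 4 arrays of the MeTA-array experiment in LNCaP-derived cells. The 10 genes were HSPA1A, HSPA1B, HSPA1L, HSPA2, HSPA6 and HSPA8 of the HSP70 family, the HSP110 gene HSPH1, the co-chaperone gene DNAJB1, the small heat shock protein gene HSPB1, and HSF1, which encodes the heat shock transcription factor. They were taken by gene symbol, and 15 probes represented them, of 34127 non-control probes and 19483 genes named on the array. HSPA1A was chosen by its large change with tetracycline on these arrays, and the other genes were chosen with its rise known. All changes of the 10 genes with tetracycline are therefore descriptions without a test. The question was whether HSPA1A rose alone or together with other heat shock genes.

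LNCaP is a human prostate cancer cell line. TR9_MeTA14 and TR15_MeTA5 cells are stable LNCaP transfectants that carry a Tet repressor and a tetracycline-inducible NFκB (AD)-MBD construct, which encodes a FLAG-tagged fusion of a methyl-CpG binding domain to the transcription activation domain of NFκB. This fusion is the tool of methyl-CpG targeted transcriptional activation, termed MeTA, and is meant to bind methylated DNA and raise transcription there. Each cell line was analyzed with tetracycline for 4 days (+Tet) and without it (-Tet), giving 4 arrays with 1 array per condition. The -Tet cells carried both constructs as well. Each line is a separate stable transfectant of its own Tet repressor line, TR9 or TR15, and whether either is 1 clone is not given in the sources used here. Parental TR9 and TR15 cells given tetracycline were not among the arrays, so an effect of the fusion and an effect of tetracycline itself cannot be told apart in these values. Whether any probe reads the construct was not tested.

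HSP70 proteins are ATP-driven chaperones that hold unfolded stretches of other proteins and release them to fold. DNAJ proteins bring clients to HSP70 and start its ATP hydrolysis, and HSP110 proteins exchange its nucleotide. Small heat shock proteins bind unfolding clients without ATP. Under heat or other protein-damaging stress, HSF1 becomes a trimer and binds heat shock elements, which are inverted repeats of the block GAA, in the promoters of HSPA1A, HSPA1B, DNAJB1, HSPH1, HSPB1 and other chaperone genes. HSF1 activity is set mostly on the protein and not on its mRNA level. HSPA8 encodes the constitutive HSP70 of the cytosol, HSPA6 is a strictly stress-inducible gene, and HSPA1L and HSPA2 are known for their expression in the testis. HSPA1L, HSPA1A and HSPA1B lie side by side in the major histocompatibility complex on chromosome 6.

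The promoter windows of 5 genes are shown because they set HSPA1A and its near-identical copy HSPA1B beside HSPA2, which was also below background before induction, and beside HSPA6 and HSPA8, which hold the longest matches to the heat shock element. The sequences are from RefSeq on GRCh38.p14, 300 bases around the annotated start of the gene, 5′ to 3′ on the strand of the gene. Capitals mark every match to GAANNTTC or TTCNNGAA, both of which read the same on either strand. The windows are chr6:31815293-31815592 on the + strand for HSPA1A, chr6:31827488-31827787 on the + strand for HSPA1B, chr14:64540491-64540790 on the + strand for HSPA2, chr1:161524290-161524589 on the + strand for HSPA6 and chr11:123062087-123062386 on the - strand for HSPA8.
HSPA1A: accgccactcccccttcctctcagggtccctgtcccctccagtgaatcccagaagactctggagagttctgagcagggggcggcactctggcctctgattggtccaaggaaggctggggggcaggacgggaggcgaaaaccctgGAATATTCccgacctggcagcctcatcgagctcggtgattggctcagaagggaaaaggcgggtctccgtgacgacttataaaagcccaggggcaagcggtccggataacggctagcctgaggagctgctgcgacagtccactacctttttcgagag
HSPA1B: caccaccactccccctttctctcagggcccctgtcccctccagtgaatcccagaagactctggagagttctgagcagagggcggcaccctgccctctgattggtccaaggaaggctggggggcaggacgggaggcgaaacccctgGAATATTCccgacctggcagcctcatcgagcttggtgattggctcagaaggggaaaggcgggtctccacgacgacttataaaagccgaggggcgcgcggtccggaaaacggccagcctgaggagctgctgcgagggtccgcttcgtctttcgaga
HSPA2: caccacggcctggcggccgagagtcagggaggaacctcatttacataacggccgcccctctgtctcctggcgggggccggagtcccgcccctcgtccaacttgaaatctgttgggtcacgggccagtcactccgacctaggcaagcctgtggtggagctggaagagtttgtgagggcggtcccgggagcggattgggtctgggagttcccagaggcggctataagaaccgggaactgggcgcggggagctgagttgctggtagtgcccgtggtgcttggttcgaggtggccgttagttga
HSPA6: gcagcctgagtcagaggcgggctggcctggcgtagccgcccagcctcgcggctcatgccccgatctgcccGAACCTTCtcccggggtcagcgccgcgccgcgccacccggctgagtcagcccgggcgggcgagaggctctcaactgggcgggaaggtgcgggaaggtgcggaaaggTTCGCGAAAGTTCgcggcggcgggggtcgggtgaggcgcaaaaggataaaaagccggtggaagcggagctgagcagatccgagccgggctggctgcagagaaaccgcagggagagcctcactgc
HSPA8: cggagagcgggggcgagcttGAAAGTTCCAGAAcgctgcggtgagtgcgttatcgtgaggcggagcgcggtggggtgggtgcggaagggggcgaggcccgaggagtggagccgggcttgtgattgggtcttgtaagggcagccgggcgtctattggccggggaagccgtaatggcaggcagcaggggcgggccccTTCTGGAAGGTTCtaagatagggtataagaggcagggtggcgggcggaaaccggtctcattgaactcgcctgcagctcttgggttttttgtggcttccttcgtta

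The HSPA1A and HSPA1B windows matched at 277 of 301 aligned columns, an identity of 92.0%. Each held 1 pair of facing blocks, starting at position -106 in HSPA1A and -105 in HSPA1B relative to the annotated start. The HSPA1L window, chr6:31815234-31815533 on the - strand, overlapped the HSPA1A window by 241 bases and read the same pair, at bases 31815437 to 31815444, from the other strand. The HSPA2 window held no pair. The HSPA6 window held 3 pairs, of which the last 2 overlapped and formed a triple of blocks (TTCNNGAANNTTC), and the HSPA8 window held 4 pairs that formed 2 triples (GAANNTTCNNGAA or its reverse complement). Among all 35116 windows, 13.49% held a pair and 0.49% a triple. A window was at hand for 9 of the 10 genes, and 7 of these had a pair in at least 1 window. The number of CpG dinucleotides, the sites at which DNA methylation occurs in mammals, was 15 in HSPA1A, 18 in HSPA1B, 21 in HSPA2, 33 in HSPA6 and 24 in HSPA8, with a median of 14 over all windows. Methylation was not measured on these arrays, and a match of letters is no proof of a binding site.

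All values are processed signals, the background-subtracted intensity of a spot, which the authors deposited without normalization between arrays. For fold changes, log2 signals were scaled by the 75th percentile of each array, which divided the +Tet to -Tet ratios by 1.26 in TR9_MeTA14 and by 1.48 in TR15_MeTA5. Between 20560 and 24217 probes per array were well above background by the flag of the extraction software. When a probe was not well above background on the dimmer array, the ratio was taken to its own signal or to the lowest signal well above background there (13.9 to 19.2), whichever was higher, and is written as a lower bound. Replicate spots within an array gave an expected SD of 0.0862 for a log2 ratio. Each condition was hybridized once, so that changes within a line lack any replicate check and precision is limited by how few arrays there are. Signals of different probes are not compared with each other. Where a pair of signals is given for a line, the -Tet value comes first, and where a pair of fold changes is given, that of TR9_MeTA14 comes first.

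HSPA1A, the major stress-inducible HSP70 gene, went from a signal not well above background to a bright one in both lines. Its probe A_23_P111132 had a signal of 3.54 in TR9_MeTA14 -Tet and 3.51 in TR15_MeTA5 -Tet, of 27731 in TR9_MeTA14 +Tet and 7185 in TR15_MeTA5 +Tet. Neither -Tet value was well above background. The groups without and with tetracycline did not overlap. With tetracycline it was at least 1424-fold higher in TR9_MeTA14 cells and at least 315-fold higher in TR15_MeTA5 cells. After normexp background correction with quantile normalization these bounds were 309.3 and 90.95. No gene had a larger value in TR9_MeTA14, of 15075 compared, and 1 gene had a larger value in TR15_MeTA5, of 14337 compared, with bounds ranked at their value.

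The probe was printed 10 times on each array, which gives a check within the array. The 10 spots ranged from 3.10 to 4.61 in TR9_MeTA14 -Tet and from 25528 to 29585 in TR9_MeTA14 +Tet. In TR15_MeTA5 -Tet, 8 spots ranged from 3.08 to 4.67 and the other 2, at 10.7 and 18.8, were marked as outliers by the software and left out. The 10 spots of TR15_MeTA5 +Tet ranged from 6752 to 7720. The SD of the log2 signals was 0.0545 and 0.0532 on the +Tet arrays and 0.189 and 0.222 on the -Tet arrays, and no -Tet spot that was kept was well above background.

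**Figure D1:**
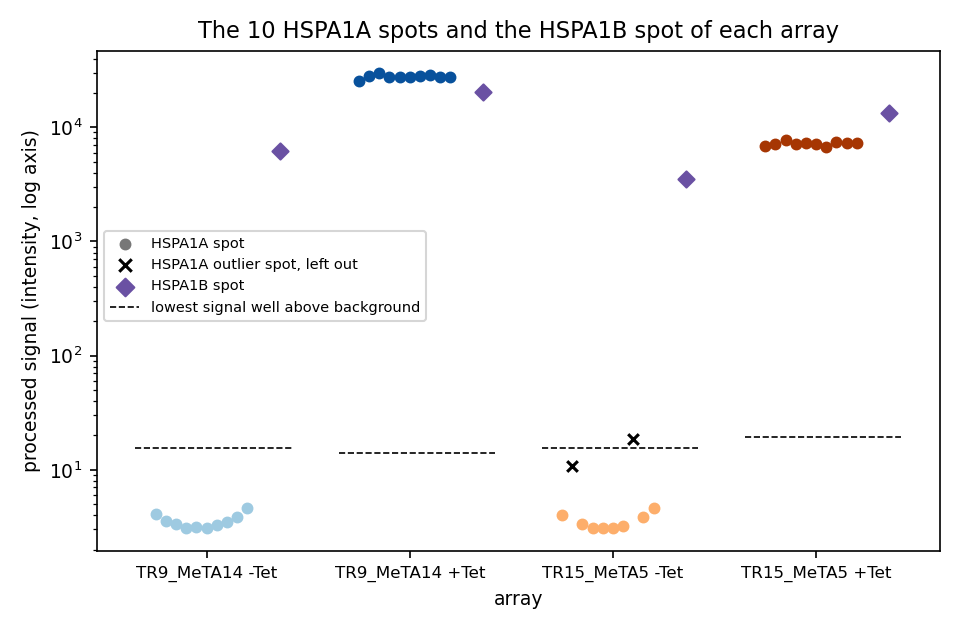
Processed signal (log axis) of each of the 10 HSPA1A spots and of the HSPA1B spot on each of the 4 arrays, before scaling between arrays. Crosses are the 2 outlier spots left out, and dashed lines are the lowest signal well above background. All kept -Tet spots of HSPA1A lie at or below 4.67 and all +Tet spots at or above 6752, whereas HSPA1B was bright on all 4 arrays.

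HSPA1B, which encodes nearly the same protein as HSPA1A and lies next to it, was already bright without tetracycline. Its probe A_33_P3415430 had signals of 6223 (-Tet) and 20220 (+Tet) in TR9_MeTA14 cells and 3556 (-Tet) and 13409 (+Tet) in TR15_MeTA5 cells. Both +Tet values lay above both -Tet values, and the fold changes were 2.58 in TR9_MeTA14 and 2.55 in TR15_MeTA5. HSPA1L, the next gene of the cluster, had signals of 173.8 and 861.4 in TR9_MeTA14 cells and of 47.9 and 293.2 in TR15_MeTA5. Its fold changes were 3.94 and 4.14. All 3 genes of the cluster were higher by 2-fold or more in both lines by their probes, where 8.21% of all genes were. The genes were chosen with these changes known, so nothing is read from that count. On the -Tet arrays, where the HSPA1B probe read 6223 and 3556, the HSPA1A probe read 3.54 and 3.51, not well above background. The HSPA1B probe may also read HSPA1A, so that its rise may hold HSPA1A signal. This was not tested, since probe sequences were not used here.

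HSPA2 was the other gene that was not well above background on either -Tet array. Its signals were 3.30 (-Tet) and 464.3 (+Tet) in TR9_MeTA14 cells and 3.24 (-Tet) and 1409 (+Tet) in TR15_MeTA5 cells. It was at least 23.9-fold higher in TR9_MeTA14 cells and at least 61.8-fold higher in TR15_MeTA5 cells. Among all genes, 577 were not well above background on both -Tet arrays and well above it on both +Tet arrays, as HSPA1A and HSPA2 were. HSPA6 was low but measured without tetracycline, with 35.1 in TR9_MeTA14 and 33.5 in TR15_MeTA5, and reached 424.3 and 220.1 with it. The fold changes were 9.62 and 4.45, and its second probe A_33_P3382331 gave 2.79 and 2.04. After normexp background correction with quantile normalization, the bounds for HSPA2 were 5.45 and 21.6, and HSPA6 was at 3.22 in TR9_MeTA14 and above 2-fold in TR15_MeTA5 by its brighter probe, whereas the second probe was at 1.67 and 1.41.

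HSPA8, the constitutive HSP70 gene, did not follow the other family members. Its signals were 15665 (-Tet) and 11965 (+Tet) in TR9_MeTA14 cells and 6776 (-Tet) and 10850 (+Tet) in TR15_MeTA5 cells, and the groups overlapped. After scaling it was 1.65-fold lower with tetracycline in TR9_MeTA14 and 1.08-fold higher in TR15_MeTA5. Altogether, 5 of the 6 HSP70 genes were higher by 2-fold or more in both lines, with a median log2 fold change over the 6 genes of 2.62 in TR9_MeTA14 and 2.10 in TR15_MeTA5. Over all genes the median was -0.06 and -0.16, and 8.21% of 13970 genes compared in both lines passed 2-fold upward in both. Since the genes were chosen with these changes known, nothing is read from that share.

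**Figure D2:**
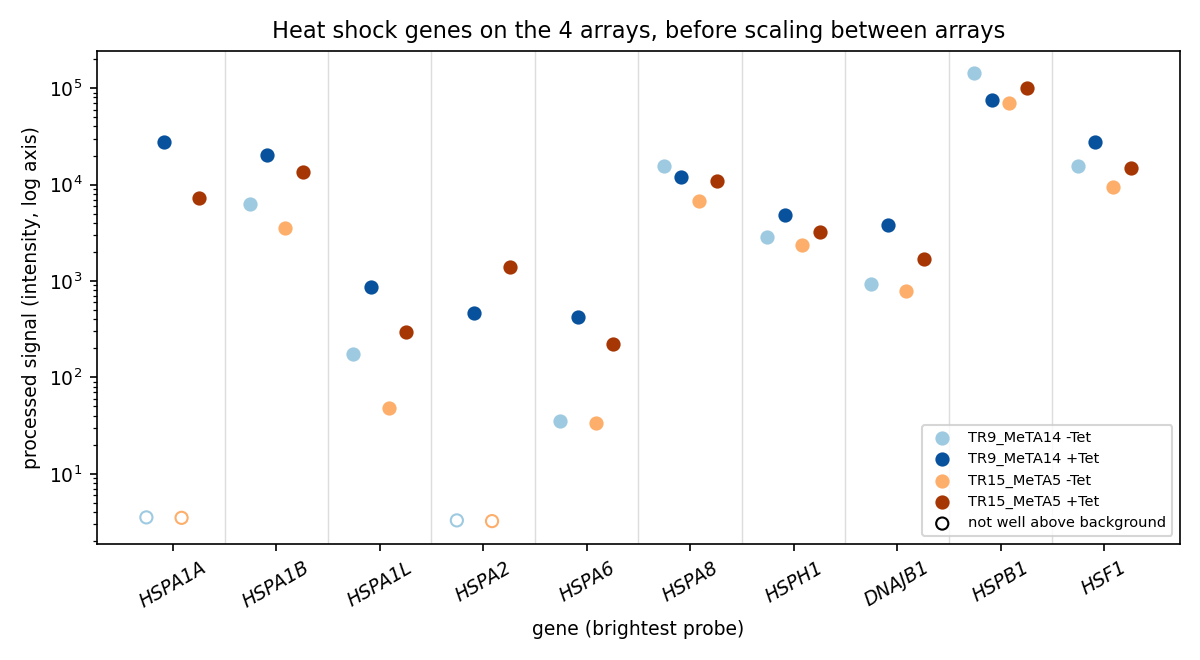
Processed signal (log axis, before scaling between arrays) of the brightest probe of each of the 10 heat shock genes on the 4 arrays. Open circles are values not well above background, and heights of different genes are not comparable. HSPA1A and HSPA2 go from below background to 464.3 or more with tetracycline, and the 4 values of HSPA8, HSPB1 and HSF1 overlap between -Tet and +Tet. The arrays differ in brightness, and after scaling HSPA8 and HSPH1 overlap whereas HSPB1 and HSF1 do not.

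Of the 4 genes outside the HSP70 family, none passed 2-fold in both lines. Among all genes, 8.21% were higher and 0.838% lower in both, so that a count of 0 does not set these 4 apart. DNAJB1, the HSF1 target whose protein is the main DNAJ partner of inducible HSP70, had signals of 936.9 and 3797 in TR9_MeTA14 cells and of 792 and 1674 in TR15_MeTA5. Both +Tet values were higher, but the fold changes were 3.22 in TR9_MeTA14 and 1.43 in TR15_MeTA5, so the 2-fold cut-off was passed in TR9_MeTA14 alone. HSPH1, which encodes the stress-inducible HSP110, had signals of 2889 and 4789 in TR9_MeTA14 cells and of 2359 and 3224 in TR15_MeTA5. Its fold changes were 1.32 and 0.924, the latter turning to 1.25 when arrays were scaled on spike-in probes, and its second probe gave 1.41 and 1.06.

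HSPB1, which encodes the small heat shock protein HSP27, had signals of 142926 (-Tet) and 74940 (+Tet) in TR9_MeTA14 cells and 69549 (-Tet) and 99198 (+Tet) in TR15_MeTA5 cells. By its brightest probe it was 2.4-fold lower in TR9_MeTA14, and this was within 2-fold after quantile normalization, with a log2 fold change of -0.51 in place of -1.26. In TR15_MeTA5 the log2 fold change was -0.05, and it turned to 0.31 with quantile normalization and 0.38 with spike-in scaling. Its second probe, A_33_P3353242, had signals between 473.1 and 593.6 over the 4 arrays, with log2 fold changes of -0.16 and -0.24. HSF1 had signals of 15643 and 27336 in TR9_MeTA14 cells and of 9420 and 14706 in TR15_MeTA5 by its brightest probe, with fold changes of 1.39 and 1.06. Its probe A_23_P253841 gave 1.14 and 0.979, and its probe A_33_P3347937 gave 1.07 in TR9_MeTA14 and no fold in TR15_MeTA5.

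Over all 10 genes, 6 were higher and 1 was lower by 2-fold or more in TR9_MeTA14, where 16.8% and 15.1% of all genes were. In TR15_MeTA5, 5 were higher and 0 lower, where 9.78% and 2.21% of all genes were. The median log2 fold change of the 9 genes other than HSPA1A was 1.37 in TR9_MeTA14 and 0.52 in TR15_MeTA5, and 4 of the 9 were higher by 2-fold or more in both lines. Among all genes, 8.21% were higher in both. None of the 4 genes outside the HSP70 family passed 2-fold upward in both, a count that does not set them apart, and their median was 0.44 and 0.01.

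**Figure D3:**
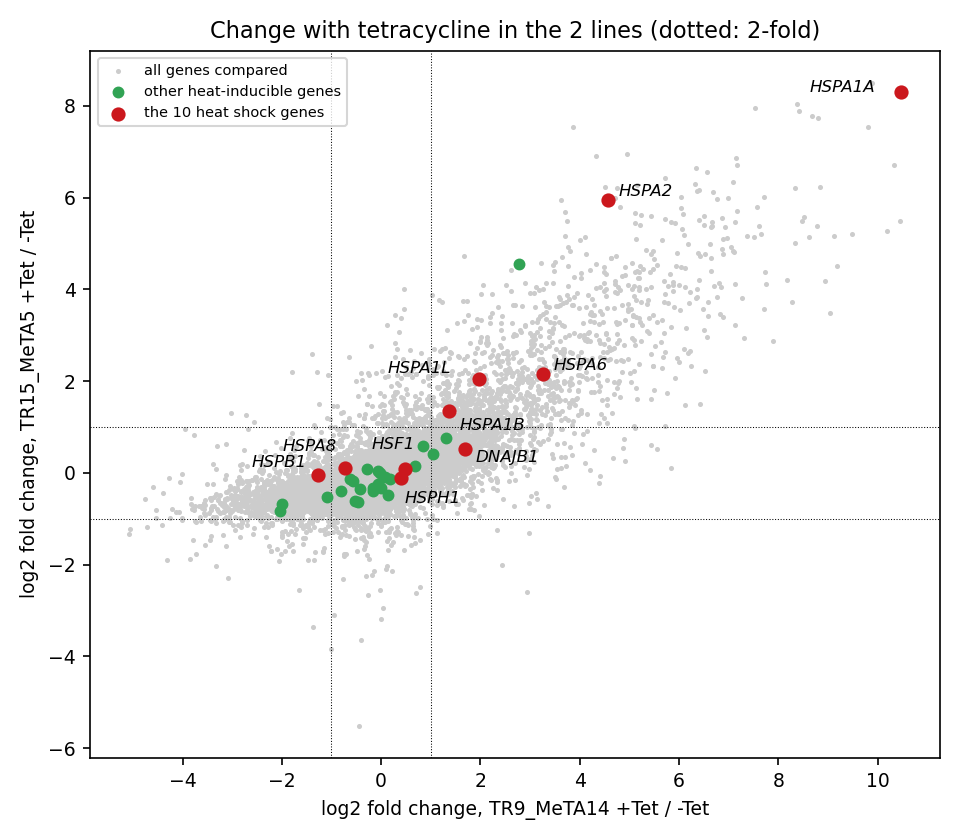
Log2 fold change with tetracycline in TR9_MeTA14 (x axis) and TR15_MeTA5 (y axis), each point being 1 gene by its brightest probe, with the 10 heat shock genes in red, other heat-inducible genes in green and all other genes in gray. Dotted lines mark 2-fold, and changes of genes below background on a -Tet array, such as HSPA1A and HSPA2, are lower bounds. HSPA1A, HSPA1B, HSPA1L, HSPA2 and HSPA6 lie above 2-fold on both axes, and of the green points RGS2 alone, at 2.79 and 4.54, does, and the sign of HSPB1 and HSPH1 on the y axis turns with other scalings.

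A list of 26 further genes known as heat-inducible, among them HSP90, HSP60 and HSP10 genes, co-chaperones and ubiquitin genes, was set beside these changes. A probe was at hand for 25 of them, and 24 had a fold change in both lines. Of these 24 genes, 3 were higher and 3 lower by 2-fold or more in TR9_MeTA14, and 1 was higher and 0 lower in TR15_MeTA5. Among all genes these shares were 16.8% and 15.1% in TR9_MeTA14 and 9.78% and 2.21% in TR15_MeTA5. The median log2 fold change of the list was -0.12 and -0.20, beside -0.06 and -0.16 over all genes. RGS2, a regulator of G protein signaling, was the only gene of the list higher by 2-fold or more in both lines. Its signals were 13.6 and 134.3 in TR9_MeTA14 and 4.84 and 531.9 in TR15_MeTA5, giving at least 6.90-fold and at least 23.3-fold. Among all genes, 8.21% were higher in both. With normexp and with a filter on all 4 arrays RGS2 did not pass, and DNAJB6 joined it with spike-in scaling and with averaged probes. Lower by 2-fold or more in both lines were 0 of the 24 genes, where 0.838% of all genes were.

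Other genes of the list that are raised strongly by heat in many cells are given as values. BAG3, a co-chaperone that recruits HSP70 to misfolded proteins, had signals of 412.4 and 516.6 in TR9_MeTA14 cells and of 400.2 and 469.6 in TR15_MeTA5, with fold changes of 0.995 and 0.794. HSP90AA1, the inducible cytosolic HSP90, gave 1.13 and 0.906. HSPD1, the mitochondrial HSP60, had signals of 84197 and 26642 in TR9_MeTA14 cells and of 54599 and 50507 in TR15_MeTA5, with fold changes of 0.251 and 0.626, and HSPE1, its partner HSP10, gave 0.467 and 0.697. The remaining genes past 2-fold in TR9_MeTA14 were DNAJB6 (2.46, against 1.70 in TR15_MeTA5), SERPINH1 (2.06, against 1.33) and CHORDC1 (0.242, against 0.563). The genes named in this paragraph were chosen after their values were seen.

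In a model of tetracycline and line fitted to all 4 arrays, limma called none of the 24 tested genes of the heat-inducible list at an adjusted p below 0.05, where 3.22% of all 14458 genes tested were called higher and 0.0138% lower. At an unadjusted p below 0.05, 3 of the 24 were higher and 2 lower, where 13.2% of all genes were higher and 8.33% lower. The smallest adjusted p in the list was that of RGS2, with a log2 fold change of 4.59 and an adjusted p of 0.094, and the others lay up to 0.994. This fitted value of RGS2 uses -Tet signals that were not well above background. The 2 lines were the only replication of the treatment. The p-values draw on the spread between them, with the variance of each probe moderated toward that of probes of like intensity. They are therefore not set by the spread of the gene itself alone. The fit had 1 residual degree of freedom. On simulated data with 200 of 22808 probes changed, it recovered 2% of 4-fold and 54% of 16-fold changes, so that small changes were mostly missed there. In the data 593 probes were called higher and 3 lower, and recovery at an adjusted p may differ with the number of changed probes. Without a filter on dim probes, RGS2 was called with an adjusted p of 0.0231 by limma.

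Among 7 other HSP70 and HSP110 family genes, HSPA5 and HSPA12B were higher by 2-fold or more in both lines, where 8.21% of all genes were. The same share stands beside the 1 of 21 HSP70 partners given next. It also stands beside the 1 of 3 genes of heat shock factors and their binding proteins. HSPA5 encodes BiP, the HSP70 of the endoplasmic reticulum and a target of the unfolded protein response, and had signals of 642.1 and 2144 in TR9_MeTA14 cells and of 272 and 1119 in TR15_MeTA5. Its fold changes were 2.65 and 2.78, and its adjusted p by limma was 0.0813. HSPA12B, an atypical HSP70 relative, gave 11.5 and 3.59, with an adjusted p of 0.0959 by limma. HSPA9 and HSPA13 were at least 2-fold lower in TR9_MeTA14 (0.448 and 0.292) and less than 2-fold changed in TR15_MeTA5 (0.799 and 0.635), and HSPA12A was 2.94-fold higher in TR15_MeTA5 and 1.63-fold higher in TR9_MeTA14.

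Among 21 genes of HSP70 partners, DNAJA4 was the only gene higher by 2-fold or more in both lines, by at least 10.9-fold and at least 3.87-fold, with an adjusted p of 0.144 by limma in a fit that used -Tet signals not well above background. The median log2 fold change of these partners was 0.12 and -0.07. Of 7 further small heat shock protein genes, 4 had a fold change and 0 passed 2-fold in both lines, where 8.21% of all genes were higher and 0.838% lower. The 8 subunit genes of the TRiC chaperonin, which folds actin and tubulin, had log2 fold changes between -1.11 and 0.12 in TR9_MeTA14 and between -0.53 and -0.12 in TR15_MeTA5. A list of 5 genes held other heat shock factors and the binding proteins HSF2BP and HSBP1, and 3 of the 5 had a fold change in both lines. Of these, HSF4 was higher by 2-fold or more in both lines, with signals of 403.6 and 2776 in TR9_MeTA14 cells and of 201.8 and 625.1 in TR15_MeTA5. Its fold changes were 5.46 and 2.10, with an adjusted p of 0.156 by limma. These 5 lists were HSP70 relatives, partners, small heat shock proteins, TRiC, and heat shock factors with their binding proteins. Of the 44 genes tested in them, limma called 0 at an adjusted p below 0.05. At an unadjusted p below 0.05 by limma, 8 were higher and 4 lower, beside 13.2% and 8.33% of all genes.

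Of the 6 measured genes next to the HSPA1 cluster, 0 passed 2-fold in the same direction in both lines, where 8.21% of all genes were higher and 0.838% lower, so that a count of 0 does not set them apart. In the order of the assembly, VWA7 had fold changes of 1.85 and 1.10, VARS1 of 0.449 and 0.760, and LSM2 of 0.905 and 0.883 on the side of HSPA1L. On the side of HSPA1B, NEU1, a lysosomal sialidase gene, had 2.43 and 1.57, SLC44A4 1.07 and 1.09, and EHMT2 0.992 and 0.880. Of these 6 neighbors, limma called 0 of the 6, with NEU1 the 1 gene at an unadjusted p below 0.05 (adjusted p of 0.224).

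The genes whose 4 scaled signals were most like those of HSPA1A were ANXA2, CLIC3, TENT5B, CFAP77 and CYBA. Likeness was the root mean square difference of the log2 signals, centered on the mean of each gene, over the 4 arrays, and ranged from 1.01 for ANXA2 to 1.29 for CYBA among 14457 genes. It used the change with tetracycline by which HSPA1A was chosen and took signals below background as they were, without bounds. Genes near background on both -Tet arrays and bright on both +Tet arrays therefore rank high, and the ranks are descriptions. CLIC3 had signals of 4.16 and 25147 in TR9_MeTA14 cells and of 9.72 and 2384 in TR15_MeTA5. ANXA2, which encodes annexin A2, had 8.25 and 18415 in TR9_MeTA14 and 14.7 and 8271 in TR15_MeTA5. Of the other heat shock genes, HSPA2 stood nearest at rank 37, followed by HSPA6 at 656, HSPA1L at 1002, HSPA1B at 1464 and DNAJB1 at 1717, and HSPB1 stood last at 12094.

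The levels of the 10 genes were also compared between the cell lines, a contrast by which they were not chosen. Without tetracycline, HSPA1L was 2.15-fold lower in TR15_MeTA5 than in TR9_MeTA14, and it was the only one of the 10 genes at least 2-fold different, a count that was 5 with spike-in scaling and 0 with normexp. Among all genes, 8.17% were higher and 5.19% lower by 2-fold or more in that comparison with the main scaling. Spike-in scaling shifts the ratios of all probes between a pair of arrays by the same amount. The share of all genes was not computed with spike-in scaling or normexp, so nothing is read from those counts. HSPA1A and HSPA2 had no fold there, since both arrays were below background. With tetracycline, HSPA1A was 2.69-fold lower and HSPA1L 2.05-fold lower in TR15_MeTA5, and HSPA2 was 4.35-fold higher, where 10.4% of all genes were at least 2-fold lower and 14.2% higher.

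Over both treatments, limma called none of the 10 genes for the cell line difference, with adjusted p between 0.26 and 0.955, and it called 0% of all genes tested. At an unadjusted p below 0.05, HSPA1L (log2 difference of -1.07, SE 0.263, adjusted p of 0.26) and HSPA2 (1.42, SE 0.461, adjusted p of 0.295) were the only ones of the 10 in limma, and 3657 of 22808 probes passed. HSPA1A and HSPA2 entered the fit through the +Tet arrays alone, and the fit used their -Tet values although these were not well above background. The -Tet signals of HSPA2, 3.30 and 3.24, were -7.55 and -6.82 on the log2 scale after scaling. Its fitted difference therefore holds the difference in scaling between these arrays. By the brightest probes, the log2 difference between the cell lines in the change with tetracycline was 1.21 for HSPB1, 0.84 for HSPA8 and 0.07 for HSPA1L. It was -1.17 for DNAJB1, -1.11 for HSPA6, -0.51 for HSPH1, -0.395 for HSF1 and -0.02 for HSPA1B. The second probes of HSPB1 and HSPA6 gave -0.08 and -0.45. With 1 array per condition, these differences could not be tested. For HSPA1A and HSPA2 no such difference is given, since their changes are lower bounds in both lines.

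The arrays were checked for the cell type. All 11 markers of LNCaP-type luminal epithelium were well above background on the 4 arrays, and the basal markers KRT5, KRT14 and TP63 on none. The summed scaled signal of the luminal markers, in units of the 75th percentile of the array, was 523 (-Tet) and 185 (+Tet) in TR9_MeTA14 cells and 683 (-Tet) and 434 (+Tet) in TR15_MeTA5 cells. Of the 11, 7 were at least 2-fold lower in TR9_MeTA14 and 0 in TR15_MeTA5, where 15.1% and 2.21% of all genes were. The summed signal of 5 leukocyte markers was 0.622 and 3.06 in TR9_MeTA14 and 1.48 and 3.20 in TR15_MeTA5. Of the 4 with a fold change, CD14 and CD68 were higher by 2-fold or more in both lines, where 8.21% of all genes were. CD3E was at least 2.55-fold lower in TR15_MeTA5. The summed signal of 5 stromal markers was 0.807 and 0.689 in TR9_MeTA14 and 0.165 and 0.254 in TR15_MeTA5, with 1 of the 5 well above background. The part of these shifts in the changes of the heat shock genes was not tested. In RNA of whole cultures, a change in the number of cells with a transcript and a change in its level per cell cannot be told apart.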

How the data were processed

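Gene expression was measured by Agilent whole human genome microarray in the TR9_MeTA14 and TR15_MeTA5 lines, untreated or given tetracycline for 4 days, on 1 array per condition. Cy3-labeled cRNA was hybridized, and the authors deposited the processed signal intensity of each spot, which is background-subtracted and not normalized between arrays. The labels name Feature Extraction 9.5.1 and the file headers 10.7.3.1. A deposited matrix of all arrays repeated the same intensity values. Groups were taken from the sample labels.

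The log2 processed signals of the spots of a probe were averaged after leaving out outlier spots (255 to 344 per array), and the 75th percentile over non-control probes of the array was subtracted. Saturated spots were 0. Spot replicates of 659 to 732 probes per array gave a median SD between 0.0569 and 0.0634 (log2). RefSeq accessions named 74.5% of probes through a table on GRCh38.p14, which was not used for array coordinates since the array design is on hg19. The brightest probe stood for a gene. The cut-off was 2-fold, as in the methods of the study. For the effect over both lines, limma 3.58.1 (R 4.3.3) was run with an intensity trend on the 22808 probes that exceeded background clearly in 2 or more arrays, with Benjamini-Hochberg adjustment over all of them. On data simulated for this comparison with 200 changed probes, 1 false call was made. Promoter windows were searched in Python 3.11.15.

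The genes and the lists were chosen with earlier results of these data known. Genes are named when they belong to the 10, when a list gene passed 2-fold in both lines or limma, when they neighbor the HSPA1 cluster, or when they are among the 5 most like HSPA1A. Named outside this rule, after their values were seen, were BAG3, HSP90AA1, HSPD1, HSPE1, DNAJB6, SERPINH1, CHORDC1, HSPA9, HSPA12A, HSPA13 and the marker genes. Alternatives were quantile normalization, scaling on the median or on 8 spike-in probes, normexp with an offset of 50 on median pixel intensities followed by quantile normalization, all spots, other filters on dim probes, the mean over probes, the deposited table, ratios without bounds, cut-offs at 1.5-fold and at 3-fold, and limma without block or trend.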

Additional observations from a re-analysis of the deposited data

Results flagged for a closer look

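HSPA8 and HSPH1 stood out because each moved in opposite directions in the 2 lines. For HSPA8 the log2 fold change was -0.72 in TR9_MeTA14 and 0.12 in TR15_MeTA5, a difference of 0.84 (TR15_MeTA5 minus TR9_MeTA14). For HSPH1 it was 0.40 in TR9_MeTA14 and -0.11 in TR15_MeTA5, a difference of -0.51, whereas its second probe A_33_P3348752 was higher in both lines. Neither difference was tested, since each condition had 1 array. The opposite directions of HSPH1 were not seen with spike-in scaling, which gave 0.54 and 0.32, and those of HSPA8 remained, at -0.58 and 0.55. Relative to the median of all genes in the main setting, HSPH1 was at 0.46 and 0.05, higher in both lines, and HSPA8 at -0.66 and 0.28. By that measure the brightest probe of HSPB1 also moved in opposite directions, at -1.20 and 0.11.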

How the results depend on the processing

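With 1 array per condition, the spread between cultures is unknown, and leaving out a replicate was not possible. No pairing by replicate number was possible because each condition has only replicate number 1. The pairing of the arrays by line is in limma as a block, and without it the calls in the heat-inducible list and among the 10 genes were 0 as with it. The log2 fold change of HSPA1A, 10.48 in TR9_MeTA14 and 8.30 in TR15_MeTA5, was 10.62 and 8.73 with spike-in scaling, 8.27 and 6.51 with normexp and quantile normalization, and 12.60 and 10.44 both as a plain ratio and without a filter on dim probes, which set it against signals below background. It had no value with a filter on all 4 arrays, where HSPA1A and HSPA2 leave and 3 of the 10 genes (HSPA1B, HSPA1L and HSPA6) were higher by 2-fold or more in both lines in place of 5. The median of the genes other than HSPA1A was 1.51 in TR9_MeTA14 with quantile normalization, 1.51 and 0.95 in TR9_MeTA14 and TR15_MeTA5 with spike-in scaling, 1.55 and 0.64 with normexp, and 0.92 and 0.32 with a filter on all 4 arrays. Genes of the heat-inducible list higher by 2-fold or more in both lines numbered 2 (RGS2 and DNAJB6) with spike-in scaling, with averaged probes and at a 1.5-fold cut-off, and 0 with normexp and with a filter on all 4 arrays. At 1.5-fold, 2 (HSPD1 and CHORDC1) were lower in both. limma called 1 gene of this list, RGS2, without a filter. Between untreated cell lines, the genes of the 10 at least 2-fold different numbered 5 (HSF1, HSPA1B, HSPA1L, HSPA8 and HSPB1) with spike-in scaling, 0 with normexp, 0 at 3-fold and 2 (HSPA1L and HSPA6) at 1.5-fold. The share of all genes was not computed in these settings, so nothing is read from these counts. Spike-in scaling moved the median of all genes in TR15_MeTA5 from -0.16 to 0.27, and relative to that median HSPB1 was at 0.11 in both settings. Of 27 other fold changes of single probes, 27 moved by more than the spot error with spike-in scaling, 20 with normexp and 14 with quantile normalization, with 4, 3 and 3 changes of sign, all of them in values within 2-fold. Spike-in scaling moved all fold changes within a line by the same amount, which was above the spot error. Its count of 27 therefore follows from the scaling itself. The cause of the shifts with normexp and quantile normalization was not tested.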
